A study of Mus musculus with 6 samples.

Results

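The 9 genes described here carry cytokine signals that end on STAT3 or, for IL-4, on STAT6. They are the receptor chains Il6ra, Il6st, Il27ra, Il21r, Il10ra, Il10rb and Il4ra, the transcription factor Stat3 and its inhibitor Socs3. They were chosen by name, and each matched 1 row of the 36811 genes in the table of FPKM values (fragments scaled by transcript length and library size). The transcriptome was sequenced in bulk from regulatory T cells (Treg), the suppressive T cells that express the transcription factor FOXP3, out of the spleen of C57BL/6 mice aged 18 to 21 weeks, sorted by the green fluorescent reporter at Foxp3. There were 3 libraries labelled cKO, with genotype Bach2fl/fl Foxp3EGFP-Cre-ERT2, and 3 labelled WT, with genotype Bach2+/+ Foxp3EGFP-Cre-ERT2. All 6 thus carried the EGFP reporter and the Cre-ERT2 recombinase at Foxp3, which acts after tamoxifen and in cells that express Foxp3. In the cKO genotype it can delete the floxed alleles of Bach2, which encodes a transcriptional repressor. The labels name no tamoxifen dose or time and do not tie libraries to animals, so the p-values below weigh a spread between these libraries that may be technical.

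A cytokine brings together receptor chains whose cytoplasmic tails hold JAK kinases, and the kinases phosphorylate STAT factors that then enter the nucleus. IL-6 binds IL6RA and then the signal chain gp130, the product of Il6st, which IL-27 also uses together with IL27RA. IL-10 binds IL10RA, which recruits STAT3, together with IL10RB, while IL-21 and IL-4 use IL21R and IL4RA with the common gamma chain. SOCS3 is made in response to STAT3 and blocks gp130. In Treg, STAT3 is known for the control of inflammation driven by IL-17-producing T cells, and IL-10 signals act through it. Bach2 is known to repress genes through sites of the AP-1 type.

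The promoters of Socs3 and Il6ra are shown because Socs3 is the feedback gene of the pathway and Il6ra is the receptor gene with the clearest separation between the groups. The sequences are from RefSeq on GRCm38.p6, from 250 bases before to 50 after the gene's start, both read on the minus strand. Socs3 lies at chr11:117969317-117969616 and Il6ra at chr3:89913147-89913446, and capitals mark a match to the STAT pattern TTCNNNGAA.
Socs3: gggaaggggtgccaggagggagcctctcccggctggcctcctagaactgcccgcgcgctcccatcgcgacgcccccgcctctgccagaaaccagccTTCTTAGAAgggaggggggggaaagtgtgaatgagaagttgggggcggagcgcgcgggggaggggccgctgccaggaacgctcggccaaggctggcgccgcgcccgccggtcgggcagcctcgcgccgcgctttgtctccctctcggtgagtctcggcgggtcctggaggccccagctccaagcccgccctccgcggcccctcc
Il6ra: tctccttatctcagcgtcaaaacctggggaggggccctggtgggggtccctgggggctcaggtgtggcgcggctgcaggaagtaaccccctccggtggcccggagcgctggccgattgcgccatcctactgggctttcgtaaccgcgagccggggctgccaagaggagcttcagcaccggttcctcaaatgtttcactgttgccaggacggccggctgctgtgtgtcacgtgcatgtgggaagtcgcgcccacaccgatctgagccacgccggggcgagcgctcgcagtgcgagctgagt

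The match in Socs3 reads TTCTTAGAA and lies 154 to 146 bases before the start. The pattern is a palindrome, so both strands give the same match. Promoters were found for 6 of the 9 genes (Il6ra, Il4ra, Il21r, Stat3, Socs3 and Il6st), and Socs3 was the 1 of these with the pattern, which 8.30% of all 32851 promoter windows hold. The pattern TTCNNNNGAA, the wider spacing that STAT6 prefers, and TGANTCA, the core of AP-1 and Bach sites, were searched on both strands. Neither was found in the 6 windows, and 6.95% and 7.81% of all windows hold them. A match is a description of these letters and says nothing of binding, and the patterns were not searched outside the windows. Il4ra and Il21r are neighbours on chromosome 7, with windows 51.2 kb apart.

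All 9 genes were well above the filter of a mean of 1 FPKM and fell into an upper and a lower tier. Stat3 was highest at a mean of 264 FPKM over the 6 libraries, followed by Il27ra at 210, Il21r at 143, Il4ra at 133 and Il10rb at 121 FPKM. The lower tier held Il6ra at 60.0 FPKM, Socs3 at 48.5, Il10ra at 33.5 and Il6st at 27.7 FPKM. FPKM is a level per transcript length, so these levels may be set side by side. All Il10rb values lay above all Il6ra values, by 1.03 ± 0.288 on the log2 scale (SD, n = 6), and all Il27ra values above all Il21r values, by 0.55 ± 0.130. The other neighbours in this order had ranges that overlapped. Il4ra exceeded Il10rb by 0.13 ± 0.118 in 5 of 6 libraries, slightly more than its spread, and the rest differed by less than their spread. Stat3 exceeded Il27ra in 5 of 6 libraries, Socs3 exceeded Il10ra in 4 of 6, and Il10ra exceeded Il6st in 3 of 6. Ligand-binding and signal chains of 1 receptor thus stood at unequal levels, with Il10ra under Il10rb and Il6st under Il6ra in each of the 6 libraries.

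**Figure D1:**
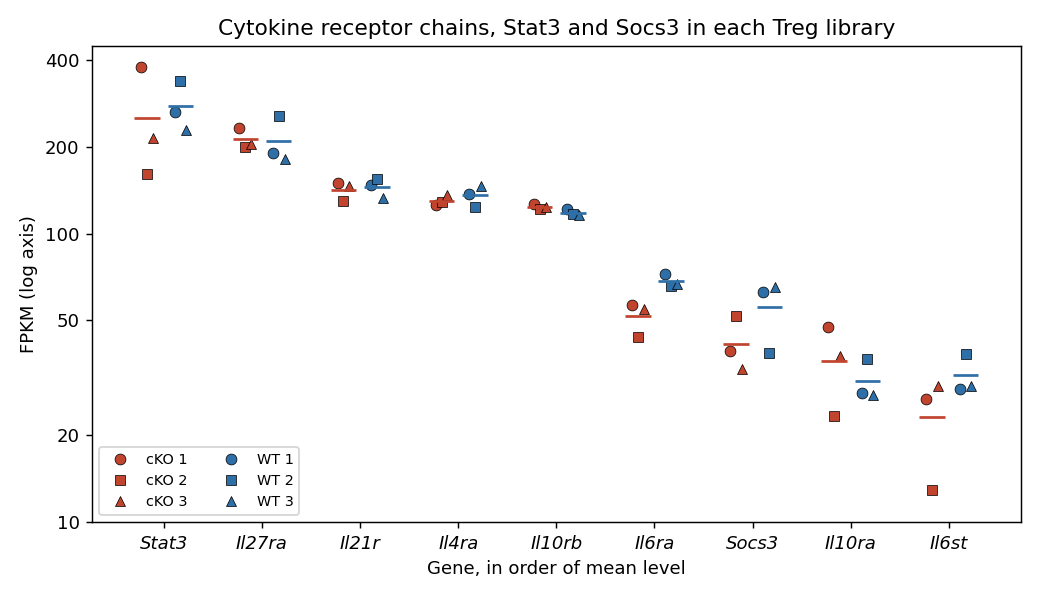
FPKM on a log axis of the 9 genes in the 3 libraries labelled cKO (red) and the 3 labelled WT (blue), with a symbol for each replicate number and a bar at each group's mean. Il6ra is separated between the groups, Il10rb hardly varies, and cKO 2 is the lowest library for Stat3, Il21r, Il6ra, Il10ra and Il6st.

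The targeted gene did not separate the labels. Bach2 measured 7.88, 9.19 and 6.44 FPKM in cKO replicates 1, 2 and 3, against 3.29, 8.25 and 4.80 FPKM in WT replicates 1, 2 and 3, a log2 difference of 0.52 with 95% bounds of -0.24 and 1.27 and a Benjamini-Hochberg adjusted p of 0.925 (limma). A value sums the whole gene, and which part was deleted is not given in the sources used here. Directions given for cKO libraries therefore rest on their labels. The T cell and Treg genes Cd3e, Cd4, Il2ra, Ikzf2, Ctla4 and Foxp3 were present in every library, with Foxp3 between 5.16 and 9.44 FPKM. The scale from fragments to FPKM, estimated from low values, lay between 3280000 fragments (WT 2) and 5430000 fragments (cKO 2). The threshold of 0.05 on the adjusted p was passed by 3 of 11979 genes, or 0.025%, and in 1283 genes (10.7%) the groups did not overlap. None of the 9 genes passed (limma, smallest adjusted p = 0.915), 1 of them, Il6ra, had an unadjusted p under 0.05, against 5.37% of all genes, and 2, Il6ra and Il10rb, had groups that did not overlap. Their median log2 difference was -0.056, against 0.03 over all genes tested.

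The IL-6 receptor genes had lower mean values in the libraries labelled cKO, and neither passed. Il6ra (ENSMUSG00000027947), the chain that binds IL-6, measured 56.6, 43.7 and 54.9 FPKM in cKO replicates 1, 2 and 3, against 72.6, 65.6 and 66.7 FPKM in WT replicates 1, 2 and 3. Every library labelled cKO lay below every library labelled WT. The means were 51.7 ± 7.01 and 68.3 ± 3.75 FPKM (SD, n = 3 each), a 1.32-fold difference. The log2 difference was -0.40 (SE 0.145), its 95% interval ran from -0.75 to -0.055, and the adjusted p was 0.915 (limma). The interval leaves out 0, but 643 genes had an unadjusted p under 0.05, and over all genes Il6ra did not pass. No fewer than 1815 fragments lay behind each value, if the longest annotated transcript is taken. The groups overlapped with libraries scaled to equal sums, where the log2 difference was -0.25.

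Some markers of other cells that make IL-6 receptor stood above Foxp3 in every library, and others were low. Foxp3 was itself the lowest of 8 Treg and T cell markers. Summed over these 8 markers, FPKM lay between 7337 and 9397 in cKO and between 6541 and 7660 in WT libraries. Cd3g alone lay between 4943 and 7374 FPKM. Summed over 9 myeloid markers, FPKM lay between 214 and 894 in cKO libraries and between 181 and 311 in those labelled WT, with S100a8 at 545 FPKM in cKO 2. Itgam and Cd14 lay below 2 FPKM in each library, while Lyz2 lay between 35.5 and 83.2 FPKM and S100a9 between 45.8 and 245 FPKM. Over 8 B cell markers the sums lay between 123 and 161 FPKM and between 111 and 158 FPKM. Among them Cd79b lay between 80.5 and 112 FPKM, while Pax5 did not exceed 1.69 FPKM. Of these marker genes, 1 of 7 tested myeloid members (Adgre1) and 0 of 7 tested B cell members had groups that did not overlap, against 10.7% of all genes. The sums of 3 other marker lists did not overlap between the groups. The ranges were 105 to 131 FPKM in cKO and 82.8 to 104 FPKM in WT libraries for 6 CD8 and NK cell markers. Of these, Cd8a and Ncr1 lay below 1 FPKM throughout, while Cd8b1 lay between 18.8 and 22.4 FPKM. The ranges were 510 to 595 and 441 to 491 FPKM for 5 follicular helper markers, some of which Treg also express, and 129 to 277 and 33.0 to 112 FPKM for 4 erythroid markers. Groups did not overlap in 2 of 3 tested CD8 and NK cell markers, in 2 of 4 follicular helper markers and in 2 of 3 erythroid markers, and the first 2 lists held members of both directions. Nkg7, a granule gene of cytotoxic cells, stood at 93.2 ± 12.4 FPKM in cKO and 67.1 ± 10.5 in WT libraries, and Klrd1, an NK receptor gene, at 0.294 ± 0.275 and 2.20 ± 1.11 FPKM. About 0 to 12 fragments lay behind each Klrd1 value. Klrd1 reached the filter only through the WT libraries, where it is higher, so its place in the count above is no support. Sh2d1a was higher (316 ± 37.0 and 237 ± 7.87 FPKM) and Cxcr5 lower (31.0 ± 2.72 and 38.6 ± 3.19 FPKM) in the libraries labelled cKO, while the erythroid genes Hba-a2 and Alas2 were both higher there. None of these markers passed (limma, smallest adjusted p = 0.846). No marker of these lists was listed at 0 in all 6 libraries. The part of such cells in the level of Il6ra was not tested. In bulk samples fewer cells of a type and less RNA per cell cannot be told apart.

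Il6st (ENSMUSG00000021756), which encodes the shared signal chain gp130, measured 26.8, 12.95 and 29.7 FPKM in cKO replicates 1, 2 and 3, against 28.9, 38.3 and 29.8 FPKM in WT replicates 1, 2 and 3. The groups overlapped, and the lowest value, in cKO 2, was 2.96-fold below the highest, in WT 2. The log2 difference was -0.53 (SE 0.317), its 95% interval ran from -1.29 to 0.22, and the adjusted p was 0.925 (limma). Without cKO replicate 2 it was -0.18. The ratio of Il6ra to Il6st within a library does not depend on library scaling. It was 2.11, 3.37 and 1.85 in cKO replicates 1, 2 and 3, against 2.52, 1.71 and 2.24 in WT replicates 1, 2 and 3. On the log2 scale with a pseudocount of 1 the group difference of this ratio was 0.13 (exact permutation test, two-sided, p = 0.7, adjusted p = 0.9 over 3 ratios), where 3 libraries against 3 allow no p below 0.1. Leaving out cKO replicate 2 turned its direction, to -0.11.

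Stat3 varied within the groups more than between them. Stat3 (ENSMUSG00000004040) measured 377, 161 and 214 FPKM in cKO replicates 1, 2 and 3, against 263, 337 and 228 FPKM in WT replicates 1, 2 and 3. Both the highest and the lowest value were in libraries labelled cKO. The means were 251 ± 113 and 276 ± 55.9 FPKM (SD, n = 3 each), with a log2 difference of -0.21, a 95% interval of -0.98 to 0.56 and an adjusted p of 0.961 (limma). At 0.483 (log2), the within-group SD of Stat3 exceeded that of 87.9% of the 363 genes within 0.5 (log2) of its level. Without cKO replicate 2 the difference was 0.06, and without cKO replicate 1 it was -0.55. Exons of Stat3 share 215 bases with Stat5a on the opposite strand, and the strand setting is not given in the sources used here.

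Socs3 (ENSMUSG00000053113), the STAT3-induced inhibitor of gp130, measured 39.0, 51.9 and 33.8 FPKM in cKO replicates 1, 2 and 3, against 62.8, 38.5 and 65.1 FPKM in WT replicates 1, 2 and 3. WT 2 lay among the libraries labelled cKO, and the other two WT libraries were the highest of the 6. The means were 41.6 ± 9.29 and 55.5 ± 14.8 FPKM (SD, n = 3 each). The log2 difference was -0.39 (SE 0.257), its 95% interval ran from -1.0 to 0.22, and the adjusted p was 0.925 (limma), and it was -0.63 without WT replicate 2 and -0.26 without cKO replicate 3.

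Socs3 was lowest in cKO 3, followed by WT 2 and cKO 1, and Stat3 was second lowest in cKO 3 but highest in cKO 1 and WT 2. The ratio of Socs3 to Stat3 was 0.103, 0.321 and 0.158 in cKO replicates 1, 2 and 3, against 0.239, 0.114 and 0.285 in WT replicates 1, 2 and 3. Stat3 is the denominator, so the ratio falls where Stat3 is high by its construction, and its order over the libraries was not read as a relation between the genes. The group difference of the log2 ratio was -0.18 (exact permutation test, two-sided, p = 0.9, adjusted p = 0.9), while its SD was 0.819 over the 3 libraries labelled cKO and 0.693 over the 3 labelled WT. It was 0.19 without cKO replicate 1, while leaving out WT replicate 3 gave 0.08, so its direction depended on single libraries.

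**Figure D2:**
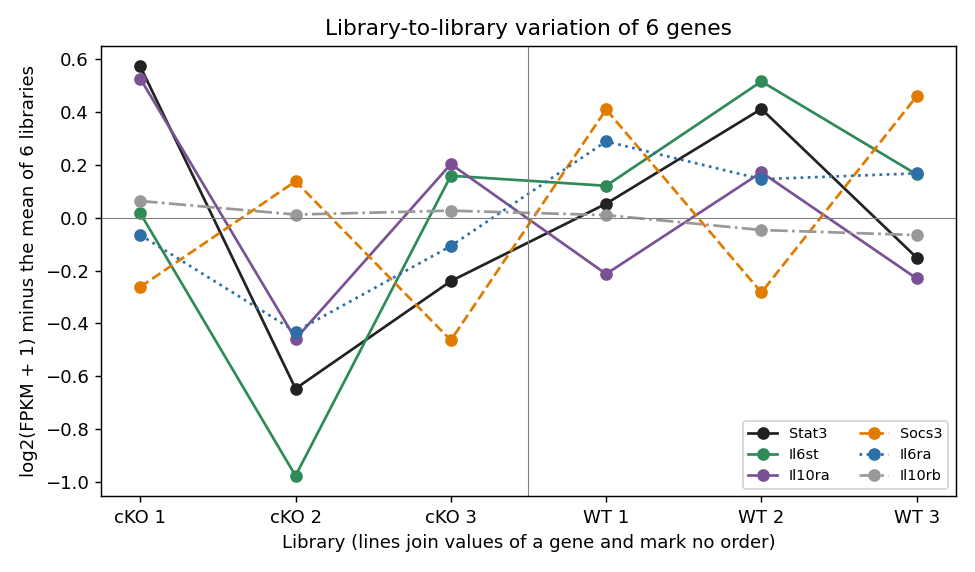
Values of 6 genes in each library as log2(FPKM + 1) minus the gene's mean over the 6 libraries, with the groups on either side of the vertical line. Stat3, Il6st and Il10ra fall to between -0.98 and -0.46 in cKO 2, where Socs3 is at 0.14, and Il10rb stays within 0.07 of its mean.

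The same libraries stood apart for some other genes of the pathway. In cKO 2 the centred log2 value was -0.65 for Stat3, -0.98 for Il6st, -0.46 for Il10ra and -0.43 for Il6ra, and it was -0.50 for the kinase gene Jak1, -0.67 for Stat5b, -0.59 for Stat6 and -0.43 for Il2rg, the common gamma chain. The other described genes moved less in cKO 2, with Il21r at -0.14, Il27ra at -0.067, Il4ra at -0.042, Il10rb at 0.012 and Socs3 at 0.14. The receptor gene Ifnar2 was highest in cKO 2, at 226 FPKM. The inhibitor gene Socs1 was at 0.58 in cKO 2 and at -0.68 in WT 2, where Stat3 was at 0.41 and Il6st at 0.52. The library cKO 2 had the largest estimated scale of fragments and WT 2 the smallest, and cKO 2 had the largest sum of myeloid markers. That sum came mostly from S100a8 (545 FPKM) and S100a9 (245 FPKM). Lyz2 was also highest in cKO 2, Csf1r was lowest there at 3.23 FPKM, and the other myeloid markers were neither highest nor lowest. The part of depth and of other cells in this variation was not tested. By root mean square distance of centred log2 values over the 6 libraries, the genes most like Stat3 among 11978 others were Tbc1d9b (0.065), Golm1 (0.0957) and a row without a symbol, ENSMUSG00000048248 (0.0982). Tbc1d9b measured 53.3, 21.6 and 27.8 FPKM in cKO replicates 1, 2 and 3, against 36.7, 50.6 and 33.6 FPKM in WT replicates 1, 2 and 3. Il10ra was the nearest of the other described genes, at 0.248, and Socs3 the farthest, at 0.626.

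The IL-10 receptor genes differed in how tightly they were held. Il10ra (ENSMUSG00000032089), the ligand-binding chain that recruits STAT3, measured 47.4, 23.4 and 37.6 FPKM in cKO replicates 1, 2 and 3, against 28.0, 36.8 and 27.6 FPKM in WT replicates 1, 2 and 3. The groups overlapped, with the highest and the lowest value both in libraries labelled cKO. The log2 difference was 0.18, with a 95% interval of -0.47 to 0.83 and an adjusted p of 0.959 (limma), and it was -0.038 without cKO replicate 1 and 0.45 without cKO replicate 2.

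Il10rb (ENSMUSG00000022969), the accessory chain that other receptors of this class share, measured 126, 122 and 123 FPKM in cKO replicates 1, 2 and 3, against 122, 117 and 115 FPKM in WT replicates 1, 2 and 3. The groups did not overlap, by the small step from 121.8 FPKM in WT 1 to 121.9 FPKM in cKO 2. The log2 difference was 0.068, with a 95% interval of -0.19 to 0.32 and an adjusted p of 0.961 (limma), and after quantile normalization it was -0.031. The within-group SD of Il10rb, 0.034 (log2), was larger than that of only 0.128% of the 781 genes within 0.5 (log2) of its level. Exons of Il10rb share 1014 bases with Gm21970 on the same strand, a gene not analysed here. The ratio of Il10ra to Il10rb was 0.375, 0.192 and 0.305 in cKO replicates 1, 2 and 3, against 0.230, 0.315 and 0.239 in WT replicates 1, 2 and 3, with a group difference of 0.11 on the log2 scale (exact permutation test, two-sided, p = 0.9, adjusted p = 0.9). Without cKO replicate 1 it was -0.092.

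The receptor chains for IL-27, IL-21 and IL-4 had small mean differences between the groups. Il27ra (ENSMUSG00000005465), the specific chain for IL-27, measured 231, 199 and 205 FPKM in cKO replicates 1, 2 and 3, against 191, 255 and 181 FPKM in WT replicates 1, 2 and 3. The values labelled cKO lay inside the range of those labelled WT, with a log2 difference of 0.035, a 95% interval of -0.36 to 0.43 and an adjusted p of 0.993 (limma). Its sign turned under 5 of 16 alternatives, with values from -0.075 to 0.19. Il21r (ENSMUSG00000030745) measured 150, 130 and 146 FPKM in cKO replicates 1, 2 and 3, against 147, 154 and 132 FPKM in WT replicates 1, 2 and 3. The groups overlapped, with a log2 difference of -0.024, a 95% interval of -0.32 to 0.28 and an adjusted p of 0.996 (limma).

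Il4ra (ENSMUSG00000030748), which signals through STAT6, measured 125, 129 and 136 FPKM in cKO replicates 1, 2 and 3, against 137, 124 and 146 FPKM in WT replicates 1, 2 and 3. The groups overlapped, and the log2 difference was -0.056, with a 95% interval of -0.34 to 0.23 and an adjusted p of 0.977 (limma). For Il21r, Il4ra and Il10rb the intervals, taken as folds on the FPKM + 1 scale, reached from 0.799 to 1.21, from 0.789 to 1.17 and from 0.879 to 1.25. A change of 1.5-fold lies outside these intervals. For Stat3, Il6st and Socs3 the intervals reached from 0.506 to 1.48, from 0.409 to 1.17 and from 0.498 to 1.17. Changes near 2-fold downward thus lie inside or at the edge of them.

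**Figure D3:**
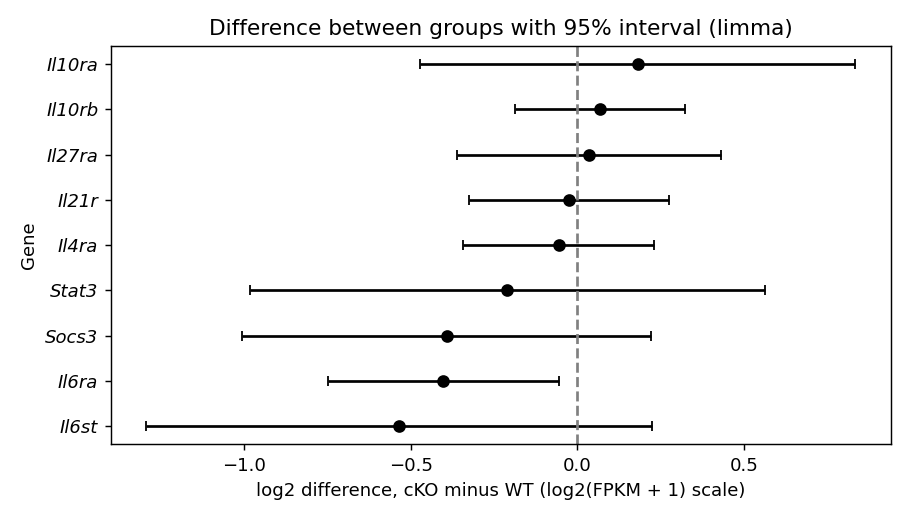
Log2 differences between the groups, cKO minus WT, of the 9 genes on the log2(FPKM + 1) scale, with 95% intervals from limma. The interval of Il6ra alone leaves out 0, and those of Il10rb, Il4ra and Il21r are the narrowest.

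The kinases and other STAT factors had groups that overlapped. Of 4 JAK kinases and 6 other STAT factors, all were tested and none passed. Jak1, the kinase of gp130 and of IL10RA, stood at 354 ± 85.1 against 384 ± 58.5 FPKM, and Tyk2, the partner of IL10RB, at 28.8 ± 7.11 against 24.5 ± 3.84 FPKM (SD, n = 3 each, cKO first here and in what follows). Stat2 had a log2 difference of -0.24 and Stat5b of -0.30, neither of which passed (limma, adjusted p = 0.925 each). The medians of the lists were -0.020 and -0.13, against 0.03 over all genes tested.

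Of 15 other SOCS, PIAS and phosphatase genes, none passed and 1 had groups that did not overlap, higher in the libraries labelled cKO as were 6.96% of all genes. That gene was Cish, an inhibitor induced by STAT5. It measured 335, 355 and 416 FPKM in cKO replicates 1, 2 and 3, against 234, 222 and 266 FPKM in WT replicates 1, 2 and 3. Its log2 difference was 0.61 (SE 0.141, adjusted p of 0.846 by limma), opposite in sign to that of Socs3. Socs2 stood at 43.2 ± 14.9 against 28.9 ± 4.37 FPKM without passing. The median of this list was 0.04.

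Among 21 other class I and II cytokine receptor chains, 15 were tested, none passed, and 4 had groups that did not overlap, all higher in the libraries labelled cKO, as were 6.96% of all genes. These were Il12rb1, the shared chain of the IL-12 and IL-23 receptors, Il15ra, Il11ra1 and Ifngr1. Il12rb1 measured 26.1, 32.3 and 29.3 FPKM in cKO replicates 1, 2 and 3, against 18.6, 21.4 and 19.7 FPKM in WT replicates 1, 2 and 3, a log2 difference of 0.53 (limma, adjusted p = 0.863). Il15ra measured 23.5, 31.4 and 27.8 FPKM in cKO replicates 1, 2 and 3, against 22.6, 16.4 and 16.2 FPKM in WT replicates 1, 2 and 3, a log2 difference of 0.56 (limma, adjusted p = 0.915). In both genes the lowest cKO value stood above the highest WT value. Il2rg was the highest chain at 1869 ± 517 against 1667 ± 303 FPKM. Of the chains that pair with gp130 for other ligands, Osmr was listed at 0 in each library and Lifr did not exceed 0.115 FPKM. Il11ra1, another of these chains, lay between 1.28 FPKM (WT 3) and 5.94 FPKM (cKO 1), with about 13 to 61 fragments behind each value. Il23r did not exceed 0.242 FPKM. The list's median was 0.14.

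Of the 8 genes for ligands of these receptors, 3 were tested (Il4, Il10 and Ebi3), none passed, and in all 3 the groups did not overlap, with higher values in the libraries labelled cKO, as in 6.96% of all genes. Ebi3, a subunit of IL-27 that Treg are known to make, stood at 84.9 ± 3.99 against 57.3 ± 6.58 FPKM, with a log2 difference of 0.57 (limma, adjusted p = 0.846). Il10 measured 2.31, 4.48 and 4.21 FPKM in cKO replicates 1, 2 and 3, against 1.47, 1.92 and 1.05 FPKM in WT replicates 1, 2 and 3, with about 5 to 27 fragments behind each value. Its log2 difference was 0.89 (limma, adjusted p = 0.915). Il4 lay between 3.65 and 6.23 FPKM in cKO libraries and between 0.601 and 2.95 FPKM in WT libraries. Only about 1 to 10 fragments lay behind each Il4 value, so its separation rests on few fragments. The receptor genes Il10ra and Il4ra had groups that overlapped, and a difference between ligand and receptor genes was not tested. Il13 and Il22 were listed at 0 in each library, and Il6, Il21 and Il27 did not exceed 0.461, 0.714 and 0.371 FPKM.

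No target gene of STAT3 or STAT6 passed. Of 17 STAT3 target genes known from T cells, 16 were tested. In Pim1, Rora and Prdm1 the groups did not overlap, with higher values in the libraries labelled cKO, and in Myc they did not overlap with lower values. Over all genes tested, 6.96% were apart and higher and 3.75% apart and lower. Prdm1, which encodes the repressor Blimp-1, stood at 9.30 ± 2.34 against 4.89 ± 0.270 FPKM (limma, adjusted p = 0.863) and Rora, an orphan nuclear receptor, at 56.99 ± 10.4 against 37.9 ± 4.66 FPKM (limma, adjusted p = 0.915). Both are also genes of effector Treg. Pim1, a kinase, stood at 9.81 ± 3.59 against 5.34 ± 1.47 FPKM, and Myc at 76.3 ± 5.73 against 94.5 ± 7.77 FPKM. Batf, the highest of the list, stood at 203 ± 3.03 against 188 ± 21.2 FPKM. The list's median was 0.13. Of 7 STAT6 target genes, 6 were tested, and in Cish and in the chemokine receptor gene Ccr4 the groups did not overlap, with higher values in the libraries labelled cKO, as in 6.96% of all genes. Cish is the gene already counted among the inhibitors and named there as induced by STAT5, so its 2 entries are 1 result. Ccr4 stood at 24.4 ± 3.66 against 15.1 ± 2.89 FPKM (limma, adjusted p = 0.874). The list's median was 0.25.

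**Figure D4:**
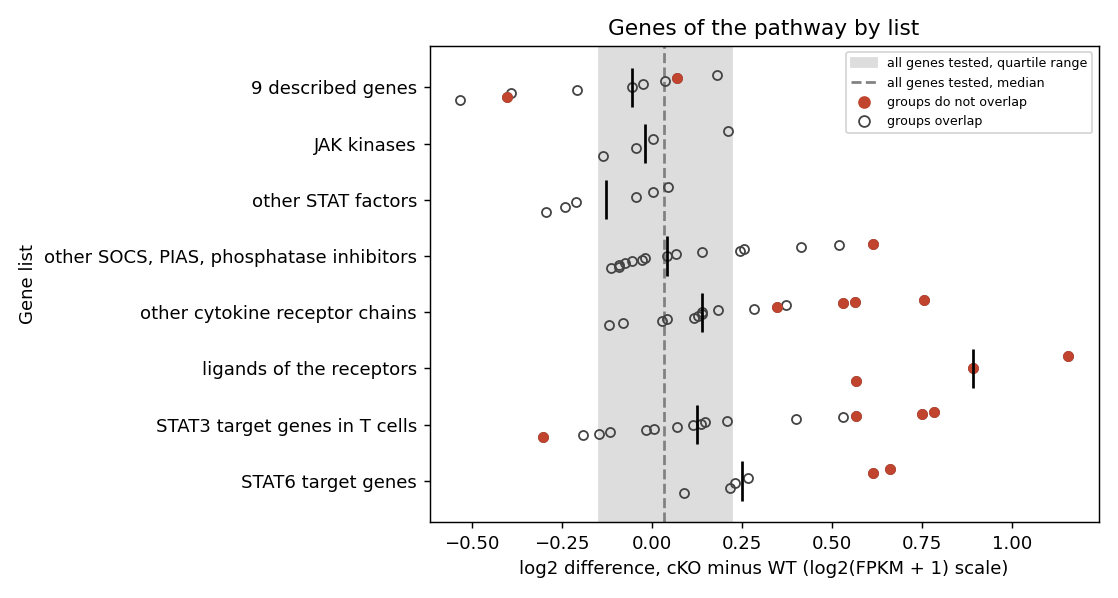
Log2 differences, cKO minus WT, of the tested genes of each list on the log2(FPKM + 1) scale, with filled red points where the groups do not overlap and a black line at each list's median. The grey band spans the quartiles of all genes tested, from -0.15 to 0.22. No point passed the test over all genes.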

How the data were processed

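SmartSeq2 libraries were made from RNA of sorted splenic Treg, 3 per group, per the labels' protocols. The submitters' processing notes name cutadapt, FastQC and HISAT2 and the builds mm9 and NCBIM37, without versions. The authors deposited FPKM values for 36811 genes, made with cuffnorm per the file's name. Of these, 31840 matched a symbol. The annotation and strand setting were not stated. Treg of Bach2 reporter mice, which the series design text describes, were not analysed here.

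A gene was tested where its mean reached 1 FPKM, with limma 3.58.1 (R 4.3.3) on log2(FPKM + 1) with a mean-variance trend and group as the only term, followed by Benjamini-Hochberg adjustment over 11979 genes and a threshold of 0.05. Differences on this scale understate changes of low genes. Ratios of 2 genes within a library had exact permutation tests. Depth was estimated from low values of genes with 1 annotated transcript (GENCODE M21) of at least 2000 bases, taken 200 bases shorter. Between 85.8% and 91.3% of such values were then whole numbers of fragments within 0.15. The depth was chosen to bring these same values near whole numbers, so this share is no separate check of it. Fragment numbers behind a value use the longest transcript and are rough, and no count model was used on them. Lists had no set test. Named by rule were the 9 genes, the 2 with the smallest p and the 1 with the highest mean of each list, label checks, and the 3 genes nearest to Stat3. Of these, 1 is not reported here. Other list members, including Stat6, Socs1 and the markers, were picked after their values were seen. The 9 genes and the lists were chosen with earlier results of these data known. The fit was run on simulated data in which each gene varied on its own, so variation that genes share within a library was not covered. Tables and figures came from Python 3.11.15 (numpy 2.4.6, pandas 2.3.3, matplotlib 3.10.9).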

Additional observations from a re-analysis of the deposited data

How the results depend on the processing

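None of the 9 genes passed (limma) under any of 16 alternatives, which were pseudocounts of 0.1 and 5, no filter, a minimum of 5 FPKM, equal sums, quantile normalization, trimmed-mean scaling, no variance trend, library quality weights, the replicate block and each of 6 libraries left out. No gene of the 7 pathway lists passed in any of them either. Il6ra, Il6st and Socs3 kept a negative log2 difference in all 16, from -0.48 to -0.25, from -0.75 to -0.18 and from -0.65 to -0.24. The smallest adjusted p of Il6ra was 0.345, with library quality weights. Equal sums moved the median of all genes from 0.03 to 0.18. With them the log2 difference turned to 0.13 for Il21r and 0.10 for Il4ra, and none of the groups was apart (0 of the 9 genes, against 2). Quantile normalization gave -0.075 for Il27ra and -0.031 for Il10rb and left 1 gene, Il6ra, with groups apart. Trimmed-mean scaling gave -0.0045 for Il27ra, and library quality weights gave 0.0017 for Il21r. With trimmed-mean scaling 2 genes had groups apart, Il6ra and Il6st, while the groups of Il10rb overlapped. Without 1 library, the log2 difference ranged from -0.55 to 0.062 for Stat3, from -0.059 to 0.19 for Il27ra, from -0.086 to 0.038 for Il21r and from -0.038 to 0.45 for Il10ra. Between 2 and 5 genes then had groups apart, 5 without WT replicate 2. Groups fall apart more easily with fewer libraries, so these counts do not compare with the 2 of the main setting. The log2 ratio differed by -0.11 to 0.30 for Il6ra to Il6st, by -0.092 to 0.38 for Il10ra to Il10rb and by -0.62 to 0.19 for Socs3 to Stat3. The count of 3 genes past the threshold was 5 to 15 without 1 library (15 without WT replicate 2) and 1 with the replicate block. Libraries of the same replicate number did not deviate together (correlations -0.06, -0.18 and -0.02), and none of the 9 genes passed with the block (adjusted p = 1.0 for Il6ra). The counts of groups apart under these settings were chosen after seeing the data. The share of all genes apart is not given for them, so they are not read as a result about the 9 genes. The cause of these shifts was not tested. With 3 libraries a group, intervals of Stat3, Il6st, Socs3 and Il10ra span more than a 2-fold range, so small changes were not detectable.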
